A study of Mus musculus with 8 samples.

Results

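Interferon-stimulated genes are the targets that cells switch on when interferons bind their receptors. A list of 43 of them was followed in cardiac fibroblasts of the mouse, which make the heart's connective tissue, by finding the row of each gene's Ensembl identifier among the 54532 genes of the deposited expression table. All 43 were found. Of these, 8 were set apart as interferon gamma type targets (Irf1, Gbp2, Gbp3, Gbp5, Gbp7, Igtp, Irgm1 and Iigp1). The other 35 are called type I type, a name for the rest of the list. Cells with a vector alone were set beside cells overexpressing EphrinB2, a ligand for Eph receptors that stays on the cell surface (its gene is Efnb2). Each kind was kept in complete medium or under osteogenic differentiation. All were collected at day 7 and profiled by RNA sequencing, with 2 libraries in each of 4 groups. Mouse strain, age, the delivery of EphrinB2 and the makeup of either medium were not stated. The labels do not say whether partner libraries are separate cultures, and p-values therefore reflect a spread that may be only technical. Groups are called vector complete, vector osteogenic, EphrinB2 complete and EphrinB2 osteogenic, and libraries are numbered 1 and 2 within a group only as a name.

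Type I interferons bind the receptor made of Ifnar1 and Ifnar2, and the Janus kinases Jak1 and Tyk2 then activate transcription factors, among them Stat2 with its partner Irf9, that bind the interferon-stimulated response element (ISRE) in promoters. Interferon gamma binds Ifngr1 and Ifngr2 and acts through another promoter element, the gamma-activated site (GAS), as at Irf1. Most products act against viruses or intracellular pathogens, and several, such as Irf7, Stat2, Irf9, Ifih1 and Usp18, feed back on the pathway itself. Fibroblasts and macrophages both carry these receptors and respond to both kinds of interferon.

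Promoters of 6 members are printed because they hold matches to either element and belong to genes on which the values below turn. Each line gives the 200 bases before the RefSeq start site, 5′ to 3′ along the gene's strand, on GRCm38.p6. Capitals mark matches to ISRE (GAAA, any 2 bases, GAAA) or GAS (TTC, any 3 bases, GAA), searched on both strands; in these 6 no match to 1 element overlaps the other. The type I type members are Ifit1 (chr19:34640689-34640888, plus strand), Rsad2 (chr12:26456453-26456652, minus strand) and Isg15 (chr4:156200819-156201018, minus strand). The interferon gamma type members are Gbp2 (chr3:142620463-142620662, plus strand), Irgm1 (chr11:48871421-48871620, minus strand) and Irf1 (chr11:53769814-53770013, plus strand).
Ifit1: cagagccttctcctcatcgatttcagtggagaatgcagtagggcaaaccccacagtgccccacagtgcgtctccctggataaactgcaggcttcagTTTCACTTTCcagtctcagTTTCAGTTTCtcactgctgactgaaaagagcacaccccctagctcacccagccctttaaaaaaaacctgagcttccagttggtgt
Rsad2: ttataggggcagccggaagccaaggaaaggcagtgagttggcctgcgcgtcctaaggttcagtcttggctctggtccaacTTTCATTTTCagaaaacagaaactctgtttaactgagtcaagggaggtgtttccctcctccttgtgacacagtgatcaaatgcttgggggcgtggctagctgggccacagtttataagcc
Isg15: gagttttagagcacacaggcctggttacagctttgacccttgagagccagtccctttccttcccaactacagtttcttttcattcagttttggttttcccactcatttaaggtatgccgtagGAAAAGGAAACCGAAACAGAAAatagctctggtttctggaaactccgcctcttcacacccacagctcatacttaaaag
Gbp2: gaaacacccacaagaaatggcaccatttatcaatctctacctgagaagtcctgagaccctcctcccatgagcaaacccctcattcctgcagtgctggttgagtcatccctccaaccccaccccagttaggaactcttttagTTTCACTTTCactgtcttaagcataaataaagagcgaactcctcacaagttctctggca
Irgm1: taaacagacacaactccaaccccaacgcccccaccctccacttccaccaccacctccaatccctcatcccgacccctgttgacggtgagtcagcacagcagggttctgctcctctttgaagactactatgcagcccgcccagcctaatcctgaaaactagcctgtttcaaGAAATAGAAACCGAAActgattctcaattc
Irf1: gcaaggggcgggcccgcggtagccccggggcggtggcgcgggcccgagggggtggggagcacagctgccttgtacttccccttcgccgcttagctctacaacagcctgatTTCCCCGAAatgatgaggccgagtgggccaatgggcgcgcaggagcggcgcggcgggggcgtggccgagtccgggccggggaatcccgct
Ifit1 holds 2 separate ISRE matches, Rsad2 and Gbp2 1 each, Irgm1 2 that overlap and Isg15 3 that overlap, while Irf1 holds 1 GAS match. In the longer RefSeq window from 250 bases before to 50 bases after the start, 33 of the 43 members had an entry. ISRE matched in at least 1 window of 20 of these 33 genes (60.6%), against 3.99% of all genes with an entry. GAS matched in 11 of 33 (33.3%), against 9.55% of all genes. Both elements occurred in both classes, so neither separates them here. A match describes the letters in the window and is not a measured binding site.

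Members also lie next to each other in the genome (GRCm38). Ifit1, Ifit2, Ifit3 and Ifit3b fall within chr19:34550694-34650009, and the Gbp members within chr3:142493978-142638008. Ifitm1, Ifitm2 and Ifitm3 share chr7:140954837-141010770. Rsad2 starts at chr12:26456452 on the minus strand and Cmpk2 at chr12:26469204 on the plus strand, pointing away from each other. Ifit3 and Ifit3b are near-identical copies whose reads may have been split between them. Exons of Adar share 1365 bases with Chrnb2 on the opposite strand, so reads there cannot be told apart without a stated strand setting, and 9 other members have such overlaps of 24 to 290 bases. On the same strand, where no strand setting separates reads, 6 members share exon bases with another gene: Gbp7 (637), Rtp4 (296), Ifitm2 (268 of its 655), Igtp (162, with Irgm2), Irf9 (123) and Parp14 (110).

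The libraries held 18407447 to 21186667 reads counted on genes, as summed from the reads recovered from the deposited values. Efnb2, the overexpressed gene, stood at 6.30 and 5.56 FPKM in vector complete, 1.39 and 1.27 in vector osteogenic, 31.3 and 32.8 in EphrinB2 complete and 5.02 and 18.3 in EphrinB2 osteogenic, replicate 1 and then 2 (FPKM is fragments scaled to exon length and library size). EphrinB2 osteogenic replicate 1 thus lay above both vector osteogenic libraries but below both vector complete libraries. In complete medium Efnb2 differed between cells by 2.26 log2 units (SE 0.48) with an unadjusted p of 0.00238 and a limma adjusted p of 1.0, so even the overexpressed gene did not pass the adjusted threshold. A pair of libraries, EphrinB2 complete replicate 2 and EphrinB2 osteogenic replicate 1, stood apart from the rest. Over all genes tested their root mean square log2 difference from the vector libraries of their medium was 0.42 and 0.69, against 0.26 and 0.23 for their partners. Of the 9 fibroblast markers listed, 9 were expressed, with a summed level of 4400.5 to 5363 FPKM in complete and 2272 to 2343 in osteogenic medium. All 16 macrophage markers were expressed as well, and their sum without Lyz2 was 313 to 537 FPKM in complete and 1303 to 2384 in osteogenic medium. The 8 T and NK cell markers stayed under 1 FPKM in every library, with a highest value of 0.135. Of the plasmacytoid dendritic cell markers, Siglech and Ccr9 were under 1 FPKM and the others, Tcf4 and the member Bst2, are not specific to those cells. In such bulk RNA, fewer cells of a type and less RNA per cell cannot be told apart.

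Interferon transcripts were at the limit of what these libraries can show. Of 10 ligand genes, 8 (Ifna1, Ifna2, Ifna4, Ifna5, Ifne, Ifng, Ifnl2 and Ifnl3) had 0 reads in all 8 libraries. Ifnb1, the interferon that fibroblasts are known for, and Ifnk had at most 1 read in a library and 2 in total each. A count of 0 allows up to 3 reads, which is 0.113 to 0.140 FPKM for Ifng and 0.195 to 0.243 FPKM for Ifnb1 depending on the library, and covers counting error only.

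Receptors and kinases of both pathways were present in every library. Ifnar1 ranged from 10.6 to 22.9 FPKM, Ifnar2 from 20.5 to 31.2, Ifngr1 from 35.3 to 114 and Ifngr2 from 16.9 to 21.8. Jak1, shared by both receptors, ranged from 34.6 to 62.9 FPKM, Jak2 from 12.8 to 16.5 and Tyk2 from 3.47 to 5.97. The interferon lambda receptor chain Ifnlr1 reached at most 0.370 FPKM. None of the 8 tested genes of this list differed by 1 log2 unit or more between both libraries of any group.

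All 43 members were detected, over a wide range of levels. The most abundant was Ifitm3, with a mean of 697 FPKM over the 8 libraries, ahead of Ifitm2 (222), Bst2 (155) and Ifi27 (76.7). Ifit3 (40.4), Isg15 (37.3), Gbp2 (20.7), Ifit1 (19.6), Eif2ak2 (16.3) and Ifi35 (15.8) followed. At the low end Oas3 averaged 0.485 FPKM and reached 1 FPKM in 1 library only (1.66), so it is given as a level and the other 42 were tested among 12994 genes that reached 1 FPKM in at least 2 libraries. The median member lay at 2.24 and 3.49 on the log2(FPKM + 1) scale in vector complete, 3.13 and 3.64 in vector osteogenic, 2.57 and 3.47 in EphrinB2 complete and 2.94 and 2.68 in EphrinB2 osteogenic. The median over all tested genes stayed between 2.70 and 2.76. Vector complete replicate 1 had the lowest value of 24 of the 43 members, and EphrinB2 complete replicate 2 had the highest value of 21.

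**Figure D1:**
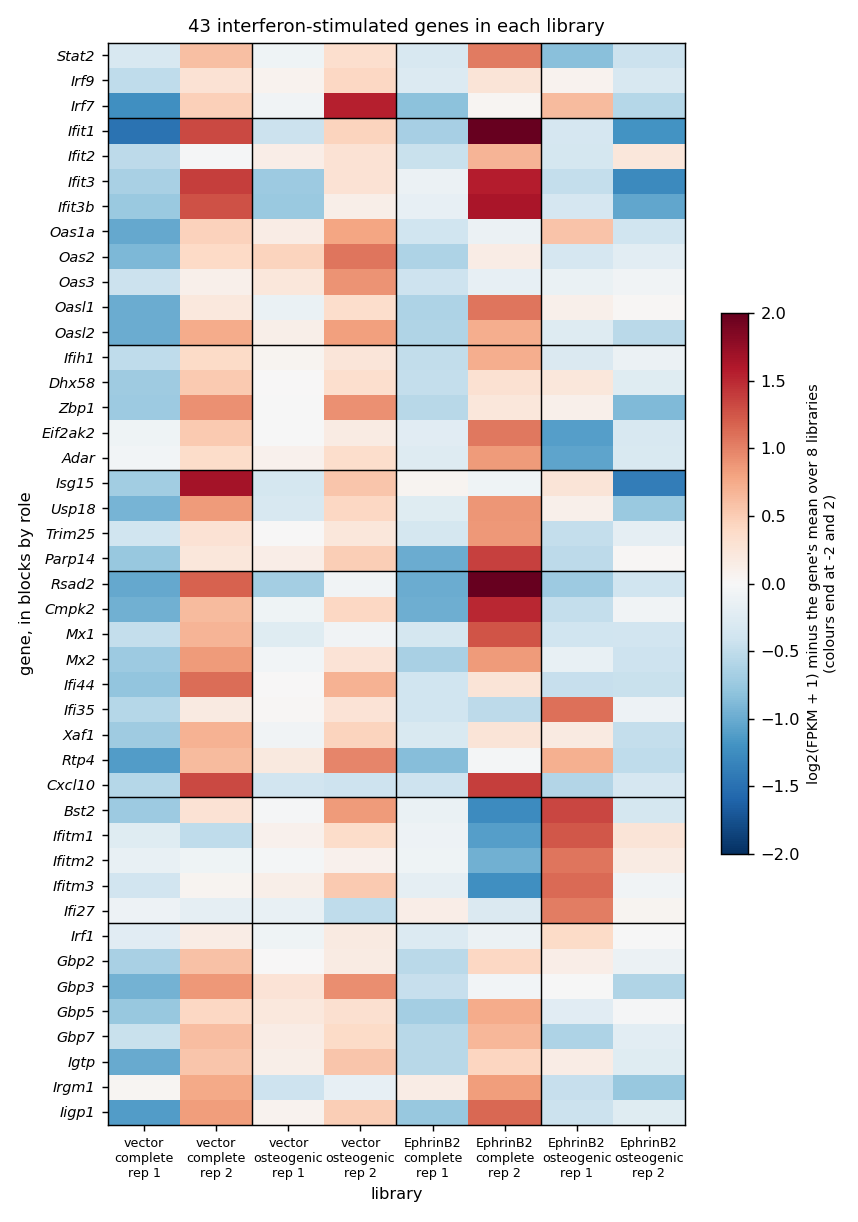
Each row is 1 of the 43 members, in blocks by role, and each column 1 library. Colour is log2(FPKM + 1) minus the gene's mean over the 8 libraries, ending at -2 and 2. In both complete medium groups replicate 1 is mostly blue and replicate 2 mostly red, while Bst2, Ifitm1, Ifitm2, Ifitm3, Ifi27 and Ifi35 are highest in EphrinB2 osteogenic replicate 1.

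Transcription factors of the pathway came first in its order of action. Irf7, which drives type I interferon genes, stood at 3.07 and 12.2 FPKM in vector complete, 7.99 and 26.8 in vector osteogenic, 4.39 and 8.72 in EphrinB2 complete and 13.7 and 5.40 in EphrinB2 osteogenic. Both libraries of a group differed by 1.99-fold or more in all 4 groups, and the groups overlapped in all 4 pairwise comparisons. Stat2 ranged from 7.06 FPKM in EphrinB2 osteogenic replicate 1 to 28.3 in EphrinB2 complete replicate 2. Irf9, the DNA-binding partner of Stat2, ranged only from 5.52 to 11.3 FPKM.

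Ifit proteins bind foreign RNA, and Ifit1 had the largest ratio of highest to lowest FPKM among the 10 most abundant members. It stood at 3.94 and 33.5 FPKM in vector complete, 9.22 and 17.7 in vector osteogenic, 7.68 and 69.7 in EphrinB2 complete and 9.89 and 4.999 in EphrinB2 osteogenic. Replicate 2 was thus 8.52-fold above replicate 1 in vector complete and 9.07-fold in EphrinB2 complete, whereas the mean ± SD of the groups was 18.7 ± 20.9 and 38.7 ± 43.9 FPKM (n = 2 each). Ifit3 stood at 19.99 and 84.6 FPKM in vector complete, 18.8 and 39.1 in vector osteogenic, 29.4 and 96.4 in EphrinB2 complete and 22.6 and 12.6 in EphrinB2 osteogenic. Both EphrinB2 osteogenic libraries lay below both EphrinB2 complete libraries for Ifit3. Ifit2 had the narrowest range of this family, between 6.81 and 17.0 FPKM.

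Sensors and effectors of double-stranded RNA formed the next block. Eif2ak2, the kinase that halts translation on such RNA, stood at 14.0 and 21.8 FPKM in vector complete, 14.9 and 16.8 in vector osteogenic, 12.6 and 32.0 in EphrinB2 complete and 6.40 and 11.8 in EphrinB2 osteogenic. The EphrinB2 osteogenic libraries were both below all other libraries. Adar, which edits adenosines in double-stranded RNA, had the same 2 libraries lowest, at 2.82 and 5.42 FPKM, with 5.67 to 13.3 elsewhere. The helicases Ifih1 (3.59 to 9.70 FPKM) and Dhx58 (1.53 to 4.96) and the nucleic acid sensor Zbp1 (2.72 to 11.9) overlapped between groups, except Ifih1, which was lower in EphrinB2 than in vector cells in osteogenic medium without overlap. Oas2, which makes the oligoadenylates that activate RNase L, stood at 2.19 and 6.83 FPKM in vector complete, 7.05 and 11.5 in vector osteogenic, 2.86 and 5.56 in EphrinB2 complete and 3.72 and 4.11 in EphrinB2 osteogenic. Both vector osteogenic libraries were the highest of the 8 for this gene.

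Isg15, a ubiquitin-like modifier attached to other proteins, stood at 18.7 and 100.02 FPKM in vector complete, 24.1 and 46.0 in vector osteogenic, 32.2 and 29.0 in EphrinB2 complete and 37.5 and 11.3 in EphrinB2 osteogenic. It was 5.35-fold apart in vector complete, yet the 2 EphrinB2 complete libraries, which differed 9.07-fold in Ifit1, were close to each other. Isg15 has 756 exon bases. All genes under 2000 bases differed between those 2 libraries by a median of -0.29 log2 units (replicate 2 minus replicate 1). Usp18, the protease that removes Isg15 and dampens type I signalling, stood at 2.16 and 9.94 FPKM in vector complete, 3.83 and 7.02 in vector osteogenic, 4.08 and 10.1 in EphrinB2 complete and 5.44 and 2.60 in EphrinB2 osteogenic. Parp14, an ADP-ribosyltransferase, was highest in EphrinB2 complete replicate 2 at 20.4 FPKM, against 3.17 in its partner.

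Rsad2, which makes an antiviral nucleotide, had the largest ratio between partners of all members. It stood at 0.258 and 4.79 FPKM in vector complete (21 and 386 reads), 0.596 and 1.44 in vector osteogenic, 0.287 and 15.4 in EphrinB2 complete (24 and 1104 reads) and 0.550 and 0.945 in EphrinB2 osteogenic. Replicate 2 was 18.5-fold and 53.9-fold above replicate 1 in the 2 complete medium groups. Its neighbour Cmpk2, a mitochondrial nucleotide kinase, was 7.67-fold and 16.5-fold above. The GTPases Mx1 and Mx2 were 10.2-fold and 9.77-fold above in vector complete and 10.9-fold and 7.74-fold in EphrinB2 complete. Those ratios rest on few reads in replicate 1. Mx1 had 11 and 111 reads in vector complete and 19 and 177 in EphrinB2 complete. Mx2 had 20 and 194 reads in vector complete and 26 and 172 in EphrinB2 complete. In replicate 1 of these groups Mx1 stood at 0.155 and 0.260 FPKM and Mx2 at 0.295 and 0.373. The chemokine Cxcl10, which recruits T cells, was detected with 5 and 133 reads in vector complete and 11 and 124 in EphrinB2 complete, while its 4 osteogenic libraries held 5 to 14 reads. Replicate 1 of each complete group thus held as few reads as the osteogenic libraries, and Cxcl10 overlapped between groups in all 4 pairwise comparisons.

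**Figure D2:**
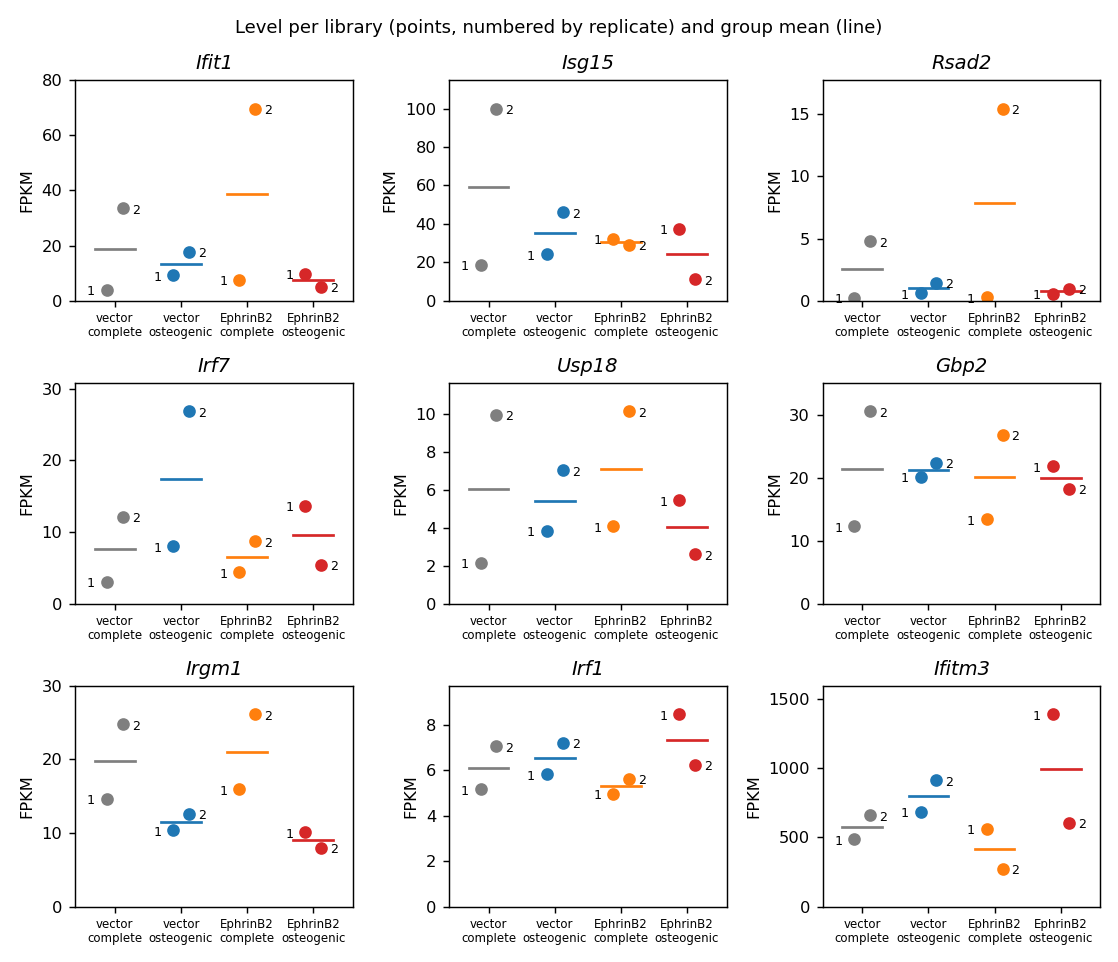
FPKM of 9 members in each library, numbered by replicate, with the group mean as a line (linear axes from 0). For Isg15, Usp18 and Gbp2 the vector complete libraries lie further apart than the group means do from each other, and Irgm1 is lower in all 4 osteogenic libraries.

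Ifitm1, Ifitm2, Ifitm3, Bst2, Ifi27 and Ifi35, set side by side after their values were seen, were lower in replicate 2 than in replicate 1 of both EphrinB2 groups. The only other tested member lower in both was Isg15. Ifitm3, which blocks fusion of viruses with endosomes, stood at 486 and 661 FPKM in vector complete, 686 and 915 in vector osteogenic, 562 and 271 in EphrinB2 complete and 1391 and 606 in EphrinB2 osteogenic. Ifitm2 stood at 187 and 196 FPKM, 202 and 221, 196 and 106, and 437 and 233 in the same order of groups. For Ifitm1, Ifitm2 and Ifitm3, both osteogenic libraries lay above both complete libraries in vector and in EphrinB2 cells. Bst2, which tethers budding virus to the cell, stood at 80.8 and 164 FPKM in vector complete, 131 and 242 in vector osteogenic, 122 and 55.5 in EphrinB2 complete and 340.3 and 105 in EphrinB2 osteogenic. Its highest and lowest values both came from EphrinB2 libraries. Ifi27 stood at 67.8 and 63.9 FPKM, 65.6 and 51.2, 79.7 and 59.7, and 149.8 and 76.0 in the same order, and Ifi35 reached 32.8 FPKM in EphrinB2 osteogenic replicate 1 against 9.54 to 18.0 elsewhere. These genes are short, with 655 exon bases in Ifitm2, 678 in Ifitm3, 903 in Bst2 and 1094 in Ifitm1. All 9 members under 2000 bases, Isg15, Oas1a and Ifit3 among them, were lower in replicate 2 of EphrinB2 osteogenic.

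Among interferon gamma type members, Gbp2, a guanylate-binding protein that attacks pathogen vacuoles, was the most abundant. It stood at 12.3 and 30.6 FPKM in vector complete, 20.1 and 22.4 in vector osteogenic, 13.4 and 26.8 in EphrinB2 complete and 21.8 and 18.3 in EphrinB2 osteogenic. The group means lay between 20.1 and 21.4 FPKM, so the groups hardly differed while partners in complete medium differed 2.49-fold and 2.003-fold. Irgm1, an immunity-related GTPase of autophagy, stood at 14.7 and 24.8 FPKM in vector complete, 10.4 and 12.6 in vector osteogenic, 15.9 and 26.1 in EphrinB2 complete and 10.1 and 7.998 in EphrinB2 osteogenic. All 4 osteogenic libraries of Irgm1 lay below all 4 complete ones. Irf1, the transcription factor whose promoter holds the GAS match printed above, had the lowest residual SD of the 42 (0.22 log2 units), between 4.96 and 8.47 FPKM. Iigp1, another immunity-related GTPase, was 5.15-fold and 4.63-fold higher in replicate 2 of the complete medium groups, Gbp5 4.66-fold and 5.57-fold, and Igtp 3.78-fold and 2.25-fold.

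The main feature of these genes was therefore a difference between libraries of the same group. In vector complete, 40 of 42 members were higher in replicate 2 than in replicate 1, with a median log2 difference of 1.24. There 27 members were higher by at least 1 log2 unit and 0 were lower by as much, against 0.87% and 0.639% of all 12994 genes. Of the 20 genes with the largest excess in that library 13 were members, led by Ifit1 (2.81), Isg15 (2.36) and Rsad2 (2.20), and 26 of the first 100 were. In EphrinB2 complete 35 of 42 were higher in replicate 2, 21 by at least 1 log2 unit and 3 lower by as much, against 2.55% and 2.91% of all genes. The 2 sets of members higher by at least 1 log2 unit shared 14 genes, which is 51.9% of the 27 and 66.7% of the 21. That 66.7% is near the 64.3% of all 42 members that were apart by as much in vector complete. Within the list, the overlap therefore marks no smaller set of members shared by both groups. It does not bear on how the list as a whole compares with other genes. Those in EphrinB2 complete alone were Adar, Eif2ak2, Ifih1, Ifit2, Parp14, Stat2 and Trim25. All but Ifit2 (3927 exon bases) have over 4000 exon bases. Over all genes of that length the median difference in EphrinB2 complete was 0.18. In vector osteogenic 40 of 42 were higher in replicate 2, but by a median of 0.42 only. There 2 were higher by 1 log2 unit or more (Irf7 at 1.63 and Ifit3 at 1.02) and 0 lower by as much, against 0.569% and 0.608% of all genes. In EphrinB2 osteogenic 26 of 42 were lower in replicate 2, with a median of -0.35. There 6 were lower and 0 higher by at least 1 log2 unit, against 7.3% and 4.86% of all genes. Replicate numbers are only names, so the sign of these differences cannot be matched between groups.

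**Figure D3:**
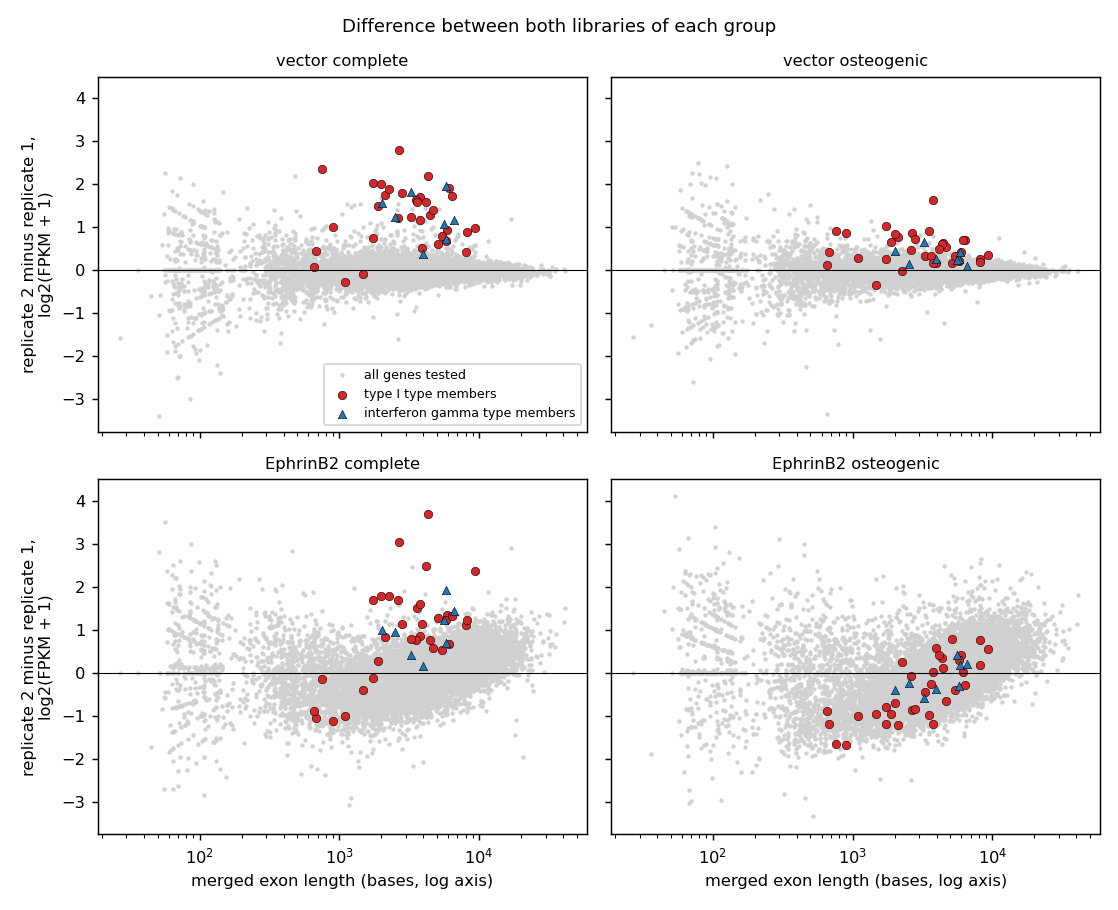
Difference between both libraries of each group (replicate 2 minus replicate 1, log2(FPKM + 1)) against merged exon length on a log axis. Grey points are the 12994 tested genes, red circles type I type and blue triangles interferon gamma type members. In vector complete most members sit above the middle of the grey cloud, but several under 2000 bases lie within it. In vector osteogenic most sit just above 0. Both EphrinB2 panels show the grey cloud itself rising with length.

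Length and other markers moved with some of these differences and not with others. In vector complete the median difference over all genes of over 4000 bases was -0.01 and that of the 17 members of that length 1.07. Among genes under 2000 bases it was -0.03 for all and 0.76 for 9 members. In EphrinB2 complete all genes differed by a median of 0.18 over 4000 bases and -0.29 under 2000 bases, and the members by 1.23 and -0.41. In EphrinB2 osteogenic the medians were 0.26 and -0.55 for all genes and 0.20 and -0.998 for members, with the 9 short members between -1.69 and -0.79. Macrophage markers did not share the vector complete pattern, since 4 of 16 were higher in replicate 2 and none differed by 1 log2 unit. In vector osteogenic 15 of 16 macrophage markers were higher in replicate 2, also without 1 log2 unit. They were less steady in EphrinB2 cells. In EphrinB2 osteogenic 5 of 16 were lower in replicate 2 by at least 1 log2 unit and 0 higher, with a median of -0.51. In EphrinB2 complete 2 of 16 were lower by as much and 0 higher, with a median of -0.07. The part of gene length or cell makeup in the members' differences was not tested.

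Spread within groups set these genes apart from most others. The residual SD of the model had a median of 0.68 log2 units over the 42 members and 0.22 over all genes, and 36 of 42 members lay in the top 10% of genes. For 37 of 42 (88.1%) the largest difference between partners exceeded the range of the 4 group means, against 56.1% of all genes. The 6 members outside the top 10% were Irf1, Irgm1, Irf9, Ifi27, Ifitm2 and Ifit2. With the spread taken from vector complete alone 39 members were in the top 10%, from vector osteogenic 30, from EphrinB2 complete 29 and from EphrinB2 osteogenic 6. Without the vector complete group the count was 23.

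Lists of upstream pathway genes from outside the members did not share this spread. Upstream genes that are themselves members, such as Stat2, Irf7 and Ifih1, were in the top 10% and are not counted in these lists. The receptor and kinase list had 0 of 8 genes in the top 10%, the transducers and feedback regulators 0 of 10, and the sensors and factors that induce interferon 0 of 14. Among 47 other interferon targets tested (57 were listed), 14 were in the top 10%. Of these 47, 45 were higher in replicate 2 of vector complete, 43 in vector osteogenic, 39 in EphrinB2 complete and 23 in EphrinB2 osteogenic. The shares over all genes were 47.0%, 50.2%, 50.3% and 48.7%. In vector complete 8 of 8 receptors and kinases, 8 of 10 transducers and regulators and 9 of 14 sensors and inducers were higher too. None of those was higher by 1 log2 unit.

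Osteogenic against complete medium in vector cells asked whether induction changed these genes without added EphrinB2. By limma, 0 of 42 members passed the adjusted threshold of 0.05, whereas 7.52% of all genes did (573 higher, 404 lower). At an unadjusted p under 0.05 there were 0 members, against 19.5% of all genes. The median difference was 0.21 log2 units over members and -0.02 over all genes, with 32 of 42 above 0. That sign depended on 1 library: the median was -0.27 without vector complete replicate 1 and 0.77 without vector complete replicate 2. The smallest p-values belonged to Irgm1 (log2 difference -0.69, SE 0.32, limma adjusted p 0.307), Oas2 (1.00, SE 0.46, adjusted p 0.307) and Irf7 (1.11, SE 0.77, adjusted p 0.545). Groups did not overlap for Ifit2, Ifitm1, Ifitm2, Ifitm3 and Oas2, higher in osteogenic medium, and for Irgm1, lower. Those 5 and 1 of 42 compare with 34.4% and 38.8% of all genes.

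The same medium comparison in EphrinB2 cells gave 0 of 42 members past the adjusted threshold by limma, against 11.8% of all genes. At an unadjusted p under 0.05, 3 members were higher (Ifitm1, Ifitm2 and Ifitm3) and 3 lower (Irgm1, Eif2ak2 and Adar), against 30.2% of all genes. Irgm1 differed by -1.10 log2 units (SE 0.32, limma adjusted p 0.0732), Ifitm1 by 1.35 (SE 0.42, adjusted p 0.088) and Ifitm2 by 1.14 (SE 0.38, adjusted p 0.104). Groups did not overlap for 5 members that were higher (Ifi35, Ifitm1, Ifitm2, Ifitm3 and Irf1; 24.3% of all genes) and 8 that were lower (Adar, Eif2ak2, Ifi44, Ifit3, Ifit3b, Irgm1, Mx1 and Stat2; 23.6%). The median over members was -0.27 and over all genes 0.03. It was -0.80 without EphrinB2 complete replicate 1, but turned to 0.35 without EphrinB2 complete replicate 2 and to 0.14 without both libraries that stood apart. By exon length, the median over members was -0.47 over 4000 bases, -0.17 from 2000 to 4000 and 0.96 under 2000. All genes of these lengths had -0.17, 0.19 and 0.33. Without EphrinB2 osteogenic replicate 2, whose removal left the library that stood apart as the only one of its group, 5 members passed limma's threshold (Ifi27, Ifi35, Ifitm1, Ifitm2 and Ifitm3, adjusted p 0.018 to 0.0288), all under 2000 exon bases, against 43.8% of all genes. Without EphrinB2 complete replicate 1, Ifitm1 (adjusted p 0.0494) and Eif2ak2 (adjusted p 0.0491) passed, against 13.6% of all genes. Both counts are below the share over all genes.

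EphrinB2 against vector in complete medium asked what EphrinB2 alone changed. By limma 0 of 42 members passed the adjusted threshold, and so did only 0.0077% of all genes (1 gene). At an unadjusted p under 0.05 there were 0 members, against 1.29% of all genes. The groups overlapped for all 42 members, against 14.3% of all genes higher and 11.5% lower without overlap. The median over members was 0.09, over all genes 0.01, and 27 of 42 were above 0. It ran from -0.55 without vector complete replicate 1 to 0.68 without vector complete replicate 2, and was -0.43 without both libraries that stood apart. The smallest p-values were those of Ifitm3 (-0.54, SE 0.49), Ifitm2 (-0.41, SE 0.38) and Oasl1 (0.62, SE 0.59), with a limma adjusted p of 1.0 each.

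In osteogenic medium EphrinB2 cells had lower values than vector cells for 35 of 42 members, with a median of -0.38 against 0.01 over all genes. By limma 0 of 42 passed the adjusted threshold, as did 0% of all genes, and 1 member (Ifi27, higher) had an unadjusted p under 0.05, against 3.39% of all genes. Of the members, 17 were lower without overlap and 2 higher (Ifi27 and Ifitm2), against 22.3% and 25.6% of all genes. Of those 17, 14 had over 4000 exon bases, as had 2272 of the 2899 genes that were lower without overlap. They are 82.4% of the 17 tested members of that length, against 35.3% of all genes of that length. The median over members kept its sign whichever library was left out, from -0.60 without vector osteogenic replicate 1 to -0.17 without vector osteogenic replicate 2. It was -0.50 without both libraries that stood apart. The sign was not the same at all lengths. Over 4000 bases all 17 members were below 0 (median -0.56, all genes -0.15). From 2000 to 4000 bases 15 of 16 were (-0.37, all genes 0.16). Under 2000 bases 6 of 9 were above 0 (0.21, all genes 0.31). Ifi27 differed by 0.87 log2 units (SE 0.34), Oas2 by -1.03 (SE 0.46) and Adar by -0.90 (SE 0.41), with a limma adjusted p of 0.567 each. Ifi27 passed limma's threshold once EphrinB2 osteogenic replicate 2 was left out (adjusted p 0.0276), the only one of 42, against 21.1% of all genes.

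Averaged over both media, EphrinB2 against vector gave 0 of 42 members past limma's adjusted threshold and 0% of all genes, with 0 members and 2.55% of all genes at an unadjusted p under 0.05. The median over members was -0.11 and over all genes 0.00. It was -0.45 without vector complete replicate 1 and 0.16 without vector complete replicate 2. The 3 smallest p-values were those of Ifi27 (0.47, SE 0.24), Oas2 (-0.51, SE 0.33) and Gbp3 (-0.57, SE 0.41), each with a limma adjusted p of 0.889. For the interaction, which asks whether the medium difference depended on EphrinB2, 0 of 42 members and 0% of all genes passed, and 0 members and 1.65% of all genes had an unadjusted p under 0.05. The median over members was -0.58, with 35 of 42 below 0, but it was 0.16 without vector complete replicate 1 and -1.21 without vector complete replicate 2. By exon length it was -0.87 over 4000 bases, -0.58 from 2000 to 4000 and 0.63 under 2000 (all genes -0.18, 0.17 and 0.37). Ifitm2 (1.00, SE 0.54), Adar (-1.04, SE 0.58) and Ifi27 (0.80, SE 0.48) had the smallest p-values of the interaction, with a limma adjusted p of 0.746 each. These comparisons share groups, so their medians are not independent of each other.

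**Figure D4:**
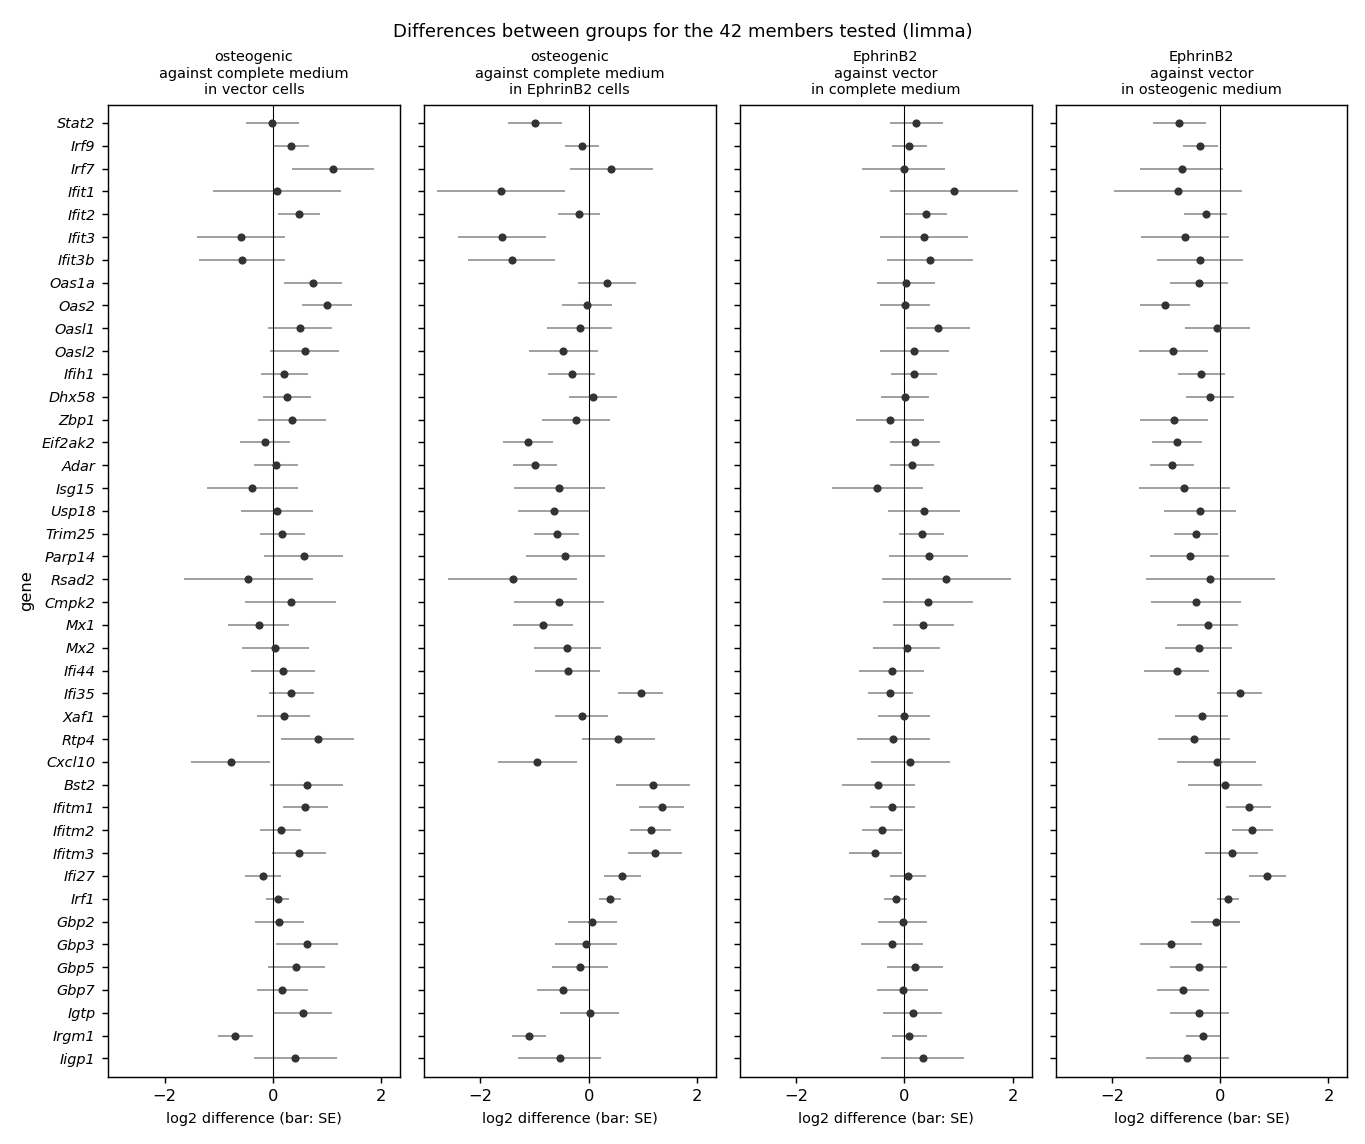
Log2 difference of each of the 42 tested members in 4 comparisons, with bars of 1 SE from limma (all 8 libraries). Most bars cross 0 in complete medium; in EphrinB2 cells Ifitm1, Ifitm2 and Ifitm3 lie right of 0 and Irgm1, Eif2ak2 and Adar left of it, none past the adjusted threshold.

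Interferon gamma type members likewise had 0 of 8 past the threshold in every comparison by limma. Their median difference was 0.30 for medium in vector cells, -0.10 for medium in EphrinB2 cells, 0.03 for EphrinB2 in complete and -0.39 for EphrinB2 in osteogenic medium, beside 0.21, -0.35, 0.10 and -0.38 for the type I type. All 8 were higher in replicate 2 of vector complete, of vector osteogenic and of EphrinB2 complete, with 6, 0 and 3 of them by at least 1 log2 unit. Of the 34 type I type members 32, 32 and 27 were higher there. In osteogenic medium 5 of the 8 and 12 of the 34 were lower in EphrinB2 cells without overlap, against 22.3% of all genes. Higher without overlap were 0 and 2, against 25.6%. The difference between both classes was not tested.

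Pathway genes outside the members are given by list, to be read against the 7.52% of all genes that passed limma's threshold for medium in vector cells and the 11.8% in EphrinB2 cells. The counts are small, and that of the other targets is below those shares. In the receptor list 0 of 8 passed in vector cells and 1 rose in EphrinB2 cells: Ifngr1, from 54.8 and 35.3 to 114 and 106 FPKM (log2 difference 1.30, SE 0.24, limma adjusted p 0.0173). In vector cells Ifngr1 stood at 52.9 and 61.6 FPKM in complete and 93.9 and 99.0 in osteogenic medium (0.75, SE 0.24, limma adjusted p 0.130). Of 10 transducers and regulators, 2 rose in both kinds of cell: Ptpn6, a phosphatase of Janus kinase signalling (0.96 in vector and 0.88 in EphrinB2 cells), and Irf8, an interferon regulatory factor of myeloid cells (0.73 and 0.74). Of 14 sensors and inducers, Tlr7, an endosomal receptor for RNA, rose by 2.30 and 1.60, and in EphrinB2 cells Irf5 (0.90) and Ikbke (0.68) rose too. Of 47 other targets 1 rose in vector cells, the inflammatory caspase Casp1 (1.19), and 3 in EphrinB2 cells, Casp1 (1.07), Ly6e (1.90) and Epsti1 (0.88). None of these lists had a gene that fell past the threshold. Beside them, macrophage markers rose in osteogenic medium for 9 of 16 in vector cells and 14 of 16 in EphrinB2 cells, with none fallen, and none of those markers was at 0 in all libraries. Tlr7, Irf5, Irf8, Ptpn6 and Casp1 are genes that macrophages express, and the part of macrophage RNA in their rise was not tested.

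Finally, the promoter elements were set beside the library differences. In vector complete the median excess in replicate 2 was 1.25 for the 19 tested members with an ISRE match and 0.80 for the 13 without. In EphrinB2 complete it was 1.22 and 0.85, in vector osteogenic 0.42 and 0.34, and in EphrinB2 osteogenic -0.40 and -0.29. The 11 members with a GAS match had a median of 0.76 in vector complete and the 21 without 1.60. In EphrinB2 complete these were 0.98 and 1.22, in vector osteogenic 0.27 and 0.50, and in EphrinB2 osteogenic -0.39 and -0.30. Ranges overlapped in each case, from 0.07 to 2.81 with and from -0.28 to 1.92 without an ISRE match in vector complete, and these values are descriptions with no test.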

How the data were processed

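RNA sequencing of total RNA gave 8 libraries in 4 groups of 2. The authors deposited 1 table of FPKM values. The submitters' processing notes name DESeq2 1.16.1, featureCounts 1.5.0-p3, HISAT2 2.0.5 and CASAVA and build mm10; no source states the annotation, strand setting or filters. GENCODE M21 (GRCm38, equal to mm10) supplied symbols and exon lengths for 54409 of 54532 identifiers.

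Multiplied by exon length, 98.1% to 98.3% of values under 50 reads were whole multiples of a library's step (tolerance 0.02 reads). The steps followed median-ratio size factors of the recovered reads and not the summed reads (the divisor was 0.854 to 1.05 of the sum), so the values appear to be scaled by size factors. Summed reads are used as depth.

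Values were analysed as log2(FPKM + 1), a scale that understates changes of low genes. The 12994 genes reaching 1 FPKM in 2 or more libraries entered 1 limma model with a mean per group (limma 3.58.1, R 4.3.3, mean-variance trend, 4 residual degrees of freedom), with two-sided tests and Benjamini-Hochberg adjustment over all genes, threshold 0.05. The model assumes 1 spread for all groups, which these groups did not share. Partners were at least 1 log2 unit apart for 1.51% of genes in vector complete and 1.18% in vector osteogenic. The shares were 5.46% in EphrinB2 complete and 12.2% in EphrinB2 osteogenic. Comparisons of vector groups are thus tested against a spread that includes the wider EphrinB2 groups. Fold changes are on that log2 scale, and ratios between partners are ratios of FPKM. The steps were tested on simulated data. The members, lists and tests were chosen with earlier results of these data known. By rule all members may be named, the 10 of highest mean are given per library, and pathway genes are named when past the threshold. Other members shown per library were chosen after their values were seen. Promoters are from RefSeq, GRCm38.p6.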

Additional observations from a re-analysis of the deposited data

How the results depend on the processing

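No alternative called a member for EphrinB2 against vector in complete medium, for the average over media or for the interaction. For medium in vector cells, 2 members passed with array weights (Ifitm1, adjusted p 0.0169, and Irgm1, log2 difference -0.69, adjusted p 0.0312), and 1, Ifitm1, passed with only the libraries compared and likewise without both libraries that stood apart. Leaving out 1 library gave 0 to 5 called members for medium in EphrinB2 cells and 0 to 1 for EphrinB2 in osteogenic medium. Counts over all genes moved more. For medium in vector cells the 977 genes became 5521 with array weights, 551 with a mean FPKM of at least 5, 5273 with only the libraries compared and 5274 without both libraries that stood apart. It was 169 to 208 without any 1 vector library and 1749 without either EphrinB2 osteogenic library. For medium in EphrinB2 cells the 1533 became 335, 867, 153 and 3858 under the first 4 settings, and ran from 635 without EphrinB2 complete replicate 2 to 5686 without EphrinB2 osteogenic replicate 2, with 720 to 766 without any 1 vector library. For EphrinB2 in complete medium the 1 became 0 with array weights, with log2(FPKM + 0.1), with a mean FPKM of at least 5 or with only the libraries compared, 13 without a filter, 2 without both libraries that stood apart, and 0 to 1 when 1 library was left out. In osteogenic medium the 0 became 14 without a filter, 1 without both libraries that stood apart and 0 to 2742 when 1 library was left out, and for the average 21, 1 and 0 to 398, each highest without EphrinB2 osteogenic replicate 2. The interaction had 22 without a filter. When 1 library was left out, the median over members ran from -0.27 to 0.77 for medium in vector cells, -0.80 to 0.35 for medium in EphrinB2 cells, -0.55 to 0.68 for EphrinB2 in complete medium, -0.60 to -0.17 in osteogenic medium, -0.45 to 0.16 for the average and -1.21 to 0.16 for the interaction. For EphrinB2 in complete medium, Ifitm2 (0.034) and Oasl1 (-0.22) changed sign without both libraries that stood apart, and ran from -0.85 to 0.034 and from -0.22 to 1.46 when 1 library was left out. The count of members in the top 10% of spread, an alternative chosen after seeing the data, was 6 from EphrinB2 osteogenic alone and 23 without vector complete. The cause of these changes was not tested. No paired analysis was possible because the labels give no replicate number shared between groups. With 2 libraries a group, and 5 reads of Cxcl10, 11 of Mx1 or 21 of Rsad2 in a library, small differences were not detectable.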
